A study of Homo sapiens with 16 samples.

Results

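The glycolysis and hypoxia response genes were followed through hepatocyte growth factor (HGF) stimulation of cells expressing wt MET or MET∆14. The set holds 35 genes that were taken by their symbols from the 42351 genes of the count table. All 35 passed the filter on low counts and were among the 15067 genes tested. They comprise 4 transporters of glucose and lactate, 11 genes of upper glycolysis, 8 genes of lower glycolysis, 3 pyruvate dehydrogenase kinases and 9 further genes of the response to low oxygen.

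Glycolysis converts glucose to pyruvate in the cytosol, and lactate dehydrogenase and lactate exporters let the pathway run on when pyruvate does not enter mitochondria. Pyruvate dehydrogenase kinases switch off the enzyme complex that carries pyruvate into the citric acid cycle. When oxygen is scarce, prolyl hydroxylases no longer mark hypoxia-inducible factor (HIF) for degradation, and HIF binds a short core motif near its target genes, which include most steps of glycolysis. Growth factor receptors such as MET also act on glycolytic genes through several pathways in cells with enough oxygen.

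RNA came from A549, a lung adenocarcinoma line named by the labels as the wt MET line, and from NCI-H596, a lung adenosquamous carcinoma line expressing MET∆14, a receptor that lacks the juxtamembrane part encoded by exon 14. Biological duplicates of polyadenylated RNA were sequenced from untreated cells (0 h) and from cells given HGF for 3, 6 or 12 h, which gives 16 libraries. All groups, the untreated cells included, had been deprived of serum, for 12 h by the labels and for longer by the study's methods. Each MET status is represented by a single cell line, so MET status and cell line cannot be told apart. The only time without HGF is 0 h, so HGF and further time in culture cannot be told apart either. The study's text uses another line, EKVX, for wt MET, and the table's column names give a slightly different name for the wt MET line. The labels state no HGF dose, and none of the 16 libraries came from cells with amplified wt MET.

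Total counts per library lay between 10158590 and 23909304 with a median of 15811012. Levels are given as CPM after scaling the totals by edgeR's TMM factors, and duplicates are given in the order of their replicate numbers. Of the epithelial markers, KRT7, KRT8 and KRT18 were above 220 CPM in all libraries. EPCAM, CDH1 and KRT19 were low in wt MET, at 0.868 to 2.97, 2.54 to 12.6 and 26.7 to 53.1 CPM, against 24.4 to 37.4, 80.6 to 125 and 931 to 1753 CPM in MET∆14. The squamous markers KRT5, KRT6A, KRT14 and TP63 were at most 2.56 CPM in wt MET libraries and at least 32.01 CPM in MET∆14 libraries. Of the markers of other cell types, PTPRC, CD3E, DES, CDH5 and COL1A2 did not exceed 0.244 CPM, PECAM1 was at most 0.0808 CPM in wt MET and 0.383 to 1.84 CPM in MET∆14, and COL1A1 and CD68 were at 10.8 to 33.3 and 34.3 to 154 CPM. The 12 h replicates of MET∆14 stood apart from the other pairs. The chi-square of their counts over its degrees of freedom was 34.1, against 2.75 to 9.80 in the other 7 pairs. Their ratio moved with gene length: the median log2 ratio of replicate 2 to replicate 1 was 0.21 over genes with up to 2972 bases of annotated exon and -0.26 over genes with at least 7812 bases. The same medians of the other pairs stayed between -0.08 and 0.08. Called members at 12 h in MET∆14 are therefore given with and without each of these libraries, either where they are described or together with the 12 h counts. For genes of other lists, values without these libraries were not computed.

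Before HGF the lines differed in most of these genes. A gene was called when the adjusted p of edgeR's quasi-likelihood test, by Benjamini and Hochberg over all genes tested, was under 0.05. At 0 h, 32 of 35 members were called between the lines, 20 higher and 12 lower in MET∆14, where 80.2% of all genes were called, 40.6% higher and 39.6% lower. The median log2 difference of the members was 0.56, against 0.02 over all genes. GAPDH, PGK1 and PGAM1, enzymes of lower glycolysis, were the members not called, with log2 differences of 0.14, 0.13 and -0.05. Each library is a bulk culture, so fewer cells of a type and less RNA per cell cannot be told apart.

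Lower in MET∆14 were PFKP, the platelet-type phosphofructokinase (log2 difference -2.79, SE 0.09), LDHB (-1.55, SE 0.10), ADM, which encodes the peptide adrenomedullin (-2.63, SE 0.11), and KDM3A, a histone demethylase (-1.51, SE 0.14). Higher in MET∆14 were HK2, the inducible hexokinase (4.19, SE 0.15), SLC16A3, the lactate exporter MCT4 (3.44, SE 0.11), PFKL, the liver-type phosphofructokinase (2.48, SE 0.13), and VEGFA, the angiogenic growth factor (1.94, SE 0.15). Some members were near absent from a line. CA9, a cell surface carbonic anhydrase, had 0 to 3 counts per wt MET library and 143 to 410 per MET∆14 library. SLC2A3, the glucose transporter GLUT3, showed the reverse, with 116 to 328 counts per wt MET library and 1 count over all 8 MET∆14 libraries. Pseudogenes of SLC2A3 hold 56.1% of the counts on it and on them together, so its level is uncertain. ALDOC, a second aldolase, measured 0.579 and 0.353 CPM in wt MET and 54.6 and 48.6 CPM in MET∆14 at 0 h. EGLN3, a prolyl hydroxylase, measured 1.88 and 1.84 CPM in wt MET against 107 and 97.0 CPM in MET∆14.

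**Figure D1:**
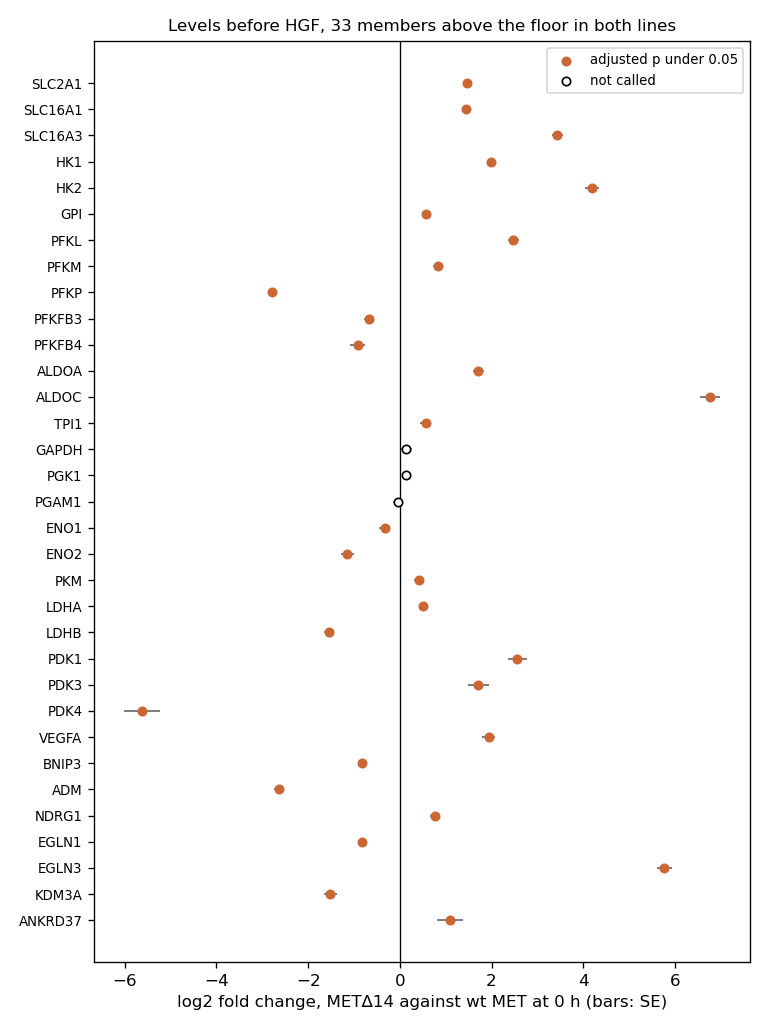
The log2 change of MET∆14 against wt MET at 0 h (x axis) is plotted for 33 members, with bars for the SE. SLC2A3 and CA9, which were at 3 counts or fewer in every 0 h library of a line, are left out. Filled points were called and open points (GAPDH, PGK1, PGAM1) were not, and the points reach from -5.62 for PDK4 to 6.77 for ALDOC.

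Per kb of annotated exon, GAPDH was the most abundant member in both lines at 0 h, with 971 CPM per kb in wt MET and 1072 in MET∆14. ENO1 followed in wt MET with 572 CPM per kb, and ALDOA in MET∆14 with 479. The members together took 1.298% and 1.37% of the counts in the wt MET libraries at 0 h and 1.07% and 1.08% at 12 h, so the 12 h libraries were below those at 0 h. In MET∆14 the share was 1.68% and 1.66% at 0 h and 1.56% and 1.90% at 12 h, where the 12 h libraries lay on either side of those at 0 h. These shares were not tested, since 2 libraries a group cannot reach a p under 0.05 in a permutation test.

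After HGF a part of the members had changed in each line. In wt MET, 7 members were called at 3 h, 4 higher and 3 lower, where 17.4% of all genes were called, 10.3% higher and 7.16% lower. At 6 h there were 13, 4 higher and 9 lower (all genes 34.2%, 16.4% higher and 17.8% lower), and at 12 h there were 18, 5 higher and 13 lower (all genes 35.1%, 16.9% higher and 18.2% lower). The median log2 change of the members at 12 h was -0.18, against -0.00 over all genes. Over the 3 times together 21 members were called in wt MET, where 40.3% of all genes were called.

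In MET∆14, 17 members were called at 3 h, 9 higher and 8 lower (all genes 31.7%, 15.5% higher and 16.1% lower). At 6 h there were 18, 8 higher and 10 lower (all genes 44.1%, 21.6% higher and 22.5% lower), and at 12 h there were 15, 11 higher and 4 lower (all genes 38.3%, 18.3% higher and 20.1% lower). The members' median at 12 h was 0.01, against -0.02 over all genes. Over the 3 times together 21 members were called in MET∆14, where 54.1% of all genes were called. As shares, the members called were above all genes at 12 h in wt MET and at 3 h in MET∆14 and closer to them at the other times, a comparison that was not tested.

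The split into higher and lower depends on the scaling. With library totals in place of TMM factors, the median of all genes moved from -0.05 to -0.13 at 3 h and from -0.04 to -0.17 at 6 h in MET∆14. In wt MET at 6 h it moved from -0.05 to -0.16. The members called were then 4 higher and 5 lower for wt MET at 3 h, 6 higher and 9 lower for MET∆14 at 3 h, and 7 higher and 15 lower for MET∆14 at 6 h. For wt MET at 6 h, SLC2A3, SLC16A3, PFKP, GAPDH, PGK1 and PKM were called as well, all lower, and no call was lost. No called log2 change of a member turned its sign under any setting.

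**Figure D2:**
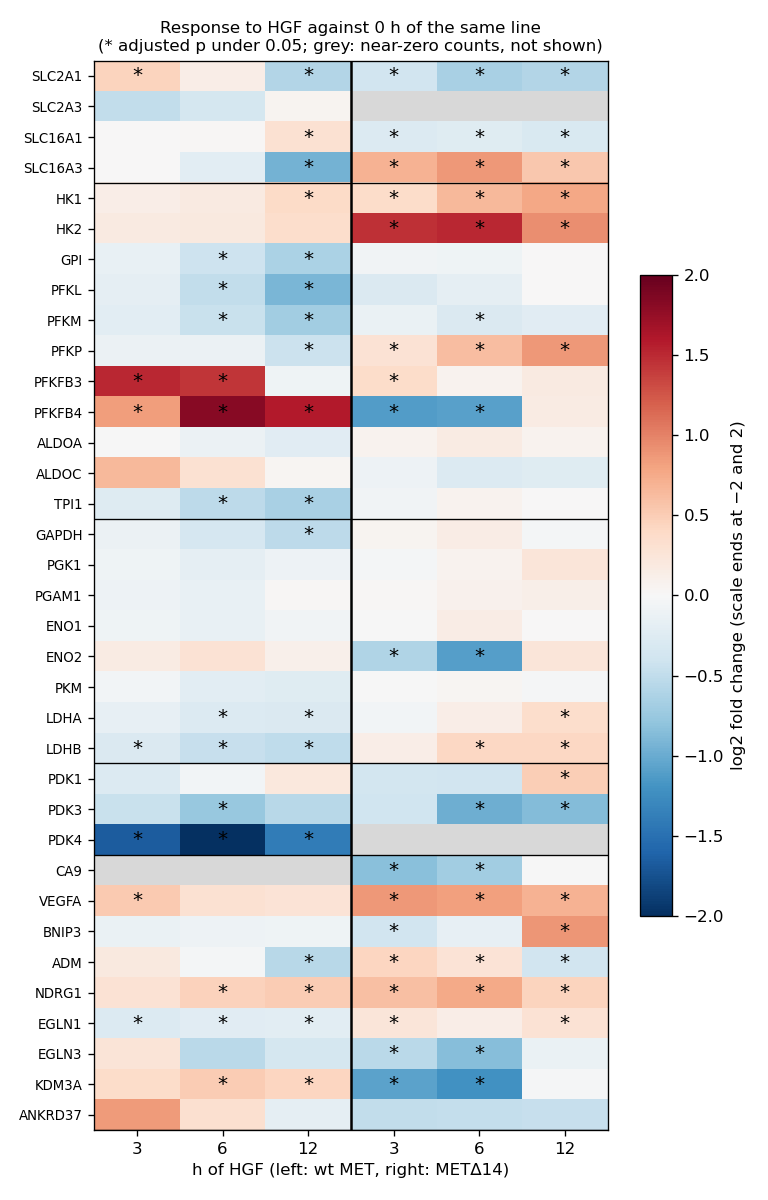
Each cell gives the log2 change of a member against 0 h of the same line (rows: members by role; columns: 3, 6 and 12 h of HGF, wt MET on the left, MET∆14 on the right). Asterisks mark calls, the colour scale ends at -2 and 2, and grey cells had near-zero counts in that line. PFKFB4 and KDM3A are red in wt MET and blue at 3 and 6 h in MET∆14.

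HK2, KDM3A, PFKFB4 and ENO2 had the largest called responses in MET∆14 among members with more than a few counts, and HK2 moved against the other 3. Their promoters are shown here, from 250 bases before to 50 bases after a RefSeq transcript start on GRCh38.p14, with the hypoxia core motif in capitals (ACGTG or GCGTG on either strand, so CACGT or CACGC where it lies on the opposite strand). The HK2 promoter spans chr2:74833877-74834176 on the plus strand and holds 3 cores, at 229, 55 and 48 bases before the start, the KDM3A promoter spans chr2:86441121-86441420 on the plus strand with 1 core at 26 bases before the start, the PFKFB4 promoter spans chr3:48556754-48557053 on the minus strand with 1 core at 166 bases before the start, and the ENO2 promoter spans chr12:6914330-6914629 on the plus strand with 1 core at 118 bases before the start.
HK2: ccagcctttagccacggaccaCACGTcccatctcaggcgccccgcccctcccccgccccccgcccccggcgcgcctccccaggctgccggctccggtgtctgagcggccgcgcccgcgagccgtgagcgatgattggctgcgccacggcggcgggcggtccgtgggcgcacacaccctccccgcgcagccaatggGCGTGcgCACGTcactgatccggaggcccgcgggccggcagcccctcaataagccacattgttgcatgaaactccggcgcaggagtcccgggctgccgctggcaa
KDM3A: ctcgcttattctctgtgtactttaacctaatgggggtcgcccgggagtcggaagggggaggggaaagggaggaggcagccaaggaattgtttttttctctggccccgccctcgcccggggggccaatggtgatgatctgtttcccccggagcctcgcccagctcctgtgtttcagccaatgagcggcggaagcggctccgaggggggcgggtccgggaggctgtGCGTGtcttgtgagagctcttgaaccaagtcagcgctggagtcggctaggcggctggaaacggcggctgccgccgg
PFKFB4: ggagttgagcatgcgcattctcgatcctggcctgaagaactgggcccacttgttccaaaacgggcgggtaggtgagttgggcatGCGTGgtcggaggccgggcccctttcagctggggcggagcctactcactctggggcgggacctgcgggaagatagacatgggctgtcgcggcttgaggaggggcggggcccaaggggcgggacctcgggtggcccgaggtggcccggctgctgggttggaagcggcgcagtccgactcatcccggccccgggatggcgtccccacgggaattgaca
ENO2: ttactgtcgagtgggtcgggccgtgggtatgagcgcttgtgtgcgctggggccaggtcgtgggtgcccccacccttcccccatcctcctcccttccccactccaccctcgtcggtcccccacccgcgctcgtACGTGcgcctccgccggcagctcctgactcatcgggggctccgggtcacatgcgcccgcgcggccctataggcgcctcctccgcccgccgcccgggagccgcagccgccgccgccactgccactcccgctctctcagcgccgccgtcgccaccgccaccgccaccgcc

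The core motif was present in the HK2 promoter, whose gene rose in MET∆14, and in the 3 promoters whose genes fell. HK2 and KDM3A each have another entry in the table, not shown, which also holds the core. Promoters were found for 31 of the 35 members, and no entry was used for SLC2A3, SLC16A1, VEGFA and NDRG1. Of the 58 promoter entries of the 31 members, 67.2% held the core, against 48.4% of all 35116 entries in the RefSeq table. The E-box CACGTG, which contains the core ACGTG, was in 13.8% of the members' entries and 7.26% of all. GTAAACA, a forkhead motif, was in 0 of 58 member entries and in 3.42% of all. A match is a description of the letters and not a bound site.

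Among the transporters, SLC2A1, the glucose transporter GLUT1, rose in wt MET at 3 h from 174 ± 1.61 to 236 ± 16.1 CPM (SD, n = 2) and fell to 116 ± 0.932 CPM at 12 h. In MET∆14 it fell at every time, from 477 ± 29.1 CPM before HGF to 303 ± 8.80 CPM after 6 h (log2 change -0.65, SE 0.08, adjusted p = 1.3e-05). SLC16A1, the monocarboxylate transporter MCT1, was called higher at 12 h in wt MET (log2 change 0.30) and lower at all 3 times in MET∆14 (-0.25 to -0.30). All 3 calls in MET∆14 were lost with each line fitted alone (adjusted p up to 0.153) and without replicate 1 of 0 h (up to 0.238). That at 3 h was also lost without either 3 h library, that at 6 h without replicate 1 of 6 h and with no filter on low counts (0.0818), and that at 12 h without replicate 1 of 12 h (0.0538). The call in wt MET was lost without replicate 1 of 0 h or either 12 h library (up to 0.127). SLC2A3 was not called at any single time in either line.

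SLC16A3, which exports lactate, moved in opposite directions in the lines. In wt MET it measured 20.9 and 17.1 CPM at 0 h, 20.5 and 17.5 at 3 h, 16.8 and 16.2 at 6 h and 10.1 and 9.69 at 12 h. In MET∆14 it measured 205 and 207 CPM at 0 h, 325 and 338 at 3 h, 348 and 399 at 6 h and 288 and 310.2 at 12 h. Every treated MET∆14 library was above the 0 h libraries, and in wt MET the 12 h libraries were below all others. The log2 change at 12 h was -0.94 (SE 0.12, adjusted p = 5.68e-05) in wt MET and 0.54 (SE 0.09, adjusted p = 0.000423) in MET∆14. Without either 12 h library of MET∆14 in turn it was 0.59 and 0.47, both called.

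In upper glycolysis, the hexokinases, which trap glucose in the cell, rose in MET∆14. HK2 measured 111 and 110.2 CPM at 0 h, 313 and 298 at 3 h, 312 and 315 at 6 h and 236 and 185 at 12 h in MET∆14. Wt MET cells had HK2 levels of 5.57 and 6.50 CPM at 0 h, 6.34 and 7.36 at 3 h, 7.99 and 5.79 at 6 h and 7.43 and 8.01 at 12 h. The treated MET∆14 libraries were all above those at 0 h. The wt MET libraries at 3 and 6 h overlapped with those at 0 h, and those at 12 h lay just above them.

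HK2 in MET∆14 had a log2 change of 1.46 at 3 h (SE 0.11, adjusted p = 2.29e-07), 1.503 at 6 h (SE 0.11, adjusted p = 9.95e-08) and 0.93 at 12 h (SE 0.11, adjusted p = 1.85e-05). At 12 h it was 0.74 without replicate 1 and 1.08 without replicate 2, both called. In wt MET it reached 0.35 at 12 h and was not called. HK1, the constitutive hexokinase, rose in MET∆14 at every time, from 193 ± 1.80 to 330.2 ± 9.50 CPM (SD, n = 2) at 12 h, and in wt MET at 12 h from 48.8 ± 0.697 to 63.7 ± 1.39 CPM.

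Several enzymes of upper glycolysis fell in wt MET. GPI, the glucose phosphate isomerase, fell from 213 ± 0.234 to 137 ± 8.36 CPM (SD, n = 2) at 12 h, and TPI1, the triose phosphate isomerase, from 261 ± 2.34 to 166 ± 10.6 CPM. PFKM and PFKP, muscle- and platelet-type subunits of phosphofructokinase, had log2 changes of -0.69 and -0.43 at 12 h, both called. PFKL measured 33.4 and 31.3 CPM at 0 h, 32.2 and 25.1 at 3 h, 22.4 and 23.7 at 6 h and 17.0 and 17.3 at 12 h in wt MET. Its 6 and 12 h libraries were all below the 0 h libraries, and the log2 change at 12 h was -0.92 (SE 0.13, adjusted p = 0.000127).

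In MET∆14 these enzymes did not fall together. PFKL measured 181 and 180.25 CPM at 0 h, 138 and 157 at 3 h, 166 and 153 at 6 h and 203 and 160.3 at 12 h in MET∆14, was not called at any time, and its 12 h libraries lay on either side of the 0 h libraries. PFKP rose instead, from 121 ± 2.87 CPM before HGF to 222 ± 2.61 CPM after 12 h (log2 change 0.87, SE 0.08, adjusted p = 1.63e-06), and was called at all 3 times. Its call at 3 h was lost without either 0 h library or replicate 2 of 3 h (adjusted p up to 0.163) and with library totals (0.0532). PFKM was called lower at 6 h (-0.29, adjusted p = 0.0292), but not without any 1 of the 0 and 6 h libraries (adjusted p up to 0.147). GPI and TPI1 were not called in MET∆14. Leaving out a MET∆14 12 h library moved TPI1 at 12 h from 0.01 to 0.27 or -0.30, both called, and PFKL to -0.17 or 0.15, not called.

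The bifunctional enzymes PFKFB3 and PFKFB4, which make and break down the sugar bisphosphate that activates phosphofructokinase, had the largest rises in wt MET. PFKFB3 measured 217 and 213 CPM at 0 h, 590.6 and 627 at 3 h, 553 and 607 at 6 h and 216 and 191 at 12 h in wt MET. The 3 and 6 h libraries were far above the others, and those at 12 h were back beside the 0 h libraries. Its log2 change was 1.502 at 3 h (SE 0.11, adjusted p = 4e-07), 1.43 at 6 h and -0.08 at 12 h. In MET∆14 it measured 131 and 140.02 CPM at 0 h, 172 and 178 at 3 h, 141 and 145 at 6 h and 175 and 131 at 12 h, and was called at 3 h alone (0.37, adjusted p = 0.0201), a call that was lost without any 1 of the 0 and 3 h libraries (adjusted p up to 0.135). At 12 h it was 0.36 without replicate 2 of that time, which was called, and -0.05 without replicate 1.

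PFKFB4 rose in wt MET and fell in MET∆14. In wt MET it measured 27.0 and 32.7 CPM at 0 h, 57.1 and 48.8 at 3 h, 94.1 and 116 at 6 h and 95.2 and 84.6 at 12 h. In MET∆14 it measured 15.3 and 16.2 CPM at 0 h, 6.11 and 8.15 at 3 h, 7.34 and 7.54 at 6 h and 20.1 and 14.8 at 12 h. All treated wt MET libraries were above those at 0 h, the MET∆14 libraries at 3 and 6 h were all below theirs, and the MET∆14 libraries at 12 h lay on either side of 0 h. The log2 change at 6 h was 1.82 (SE 0.15, adjusted p = 7.07e-07) in wt MET and -1.08 (SE 0.18, adjusted p = 0.00021) in MET∆14. At 12 h it was 1.59 in wt MET, called, and 0.17 in MET∆14, not called with or without either 12 h library.

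The aldolases ALDOA and ALDOC, which split the hexose bisphosphate, were not called at any single time in either line. ALDOA shares 42.8% of its annotated exon length with another gene on the same strand, so its counts are uncertain. At 12 h in MET∆14 its log2 change was 0.07, and it was 0.27 without replicate 1 and -0.19 without replicate 2, both called.

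**Figure D3:**
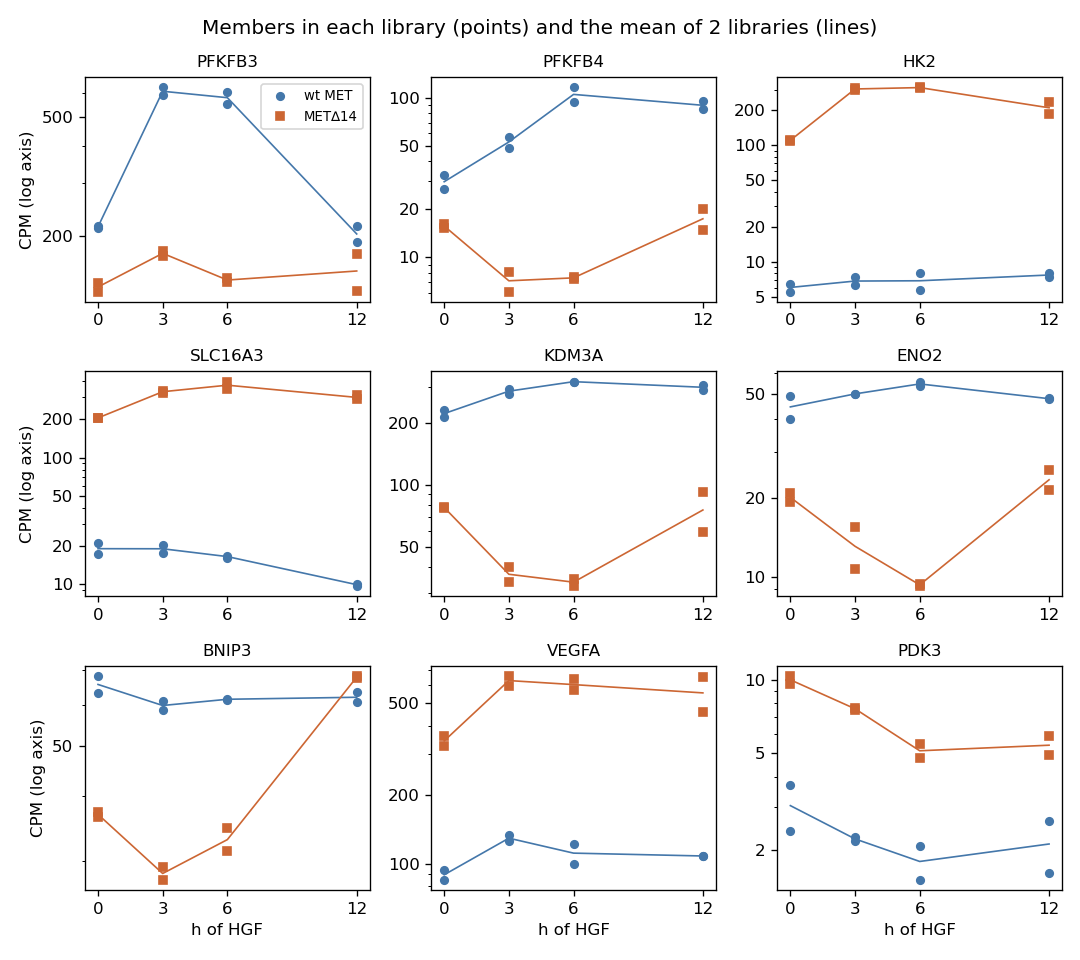
CPM on a log axis against h of HGF for 9 members, with a point for each library (blue circles wt MET, orange squares MET∆14) and a line through the mean of the 2 libraries. PFKFB3 in wt MET returns to its 0 h level at 12 h, HK2 is high in MET∆14 at 3 and 6 h, and PFKFB4, KDM3A and ENO2 dip at 3 and 6 h in MET∆14.

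In lower glycolysis 4 of 8 members were called at 1 or more times in a line, and the other 4 were called at none. Of all genes tested, 26.5% were called at no time in either line. PGK1, PGAM1, ENO1 and PKM, which carry the 3-carbon steps from phosphoglycerate to pyruvate, were not called at any time in either line, and their log2 changes lay between -0.25 and 0.24. PGK1 was at 0.38, PGAM1 at 0.31 and ENO1 at 0.23 at 12 h in MET∆14 without replicate 1 of that time, all called. Without replicate 2 ENO1 was at -0.27, also called. GAPDH, the dehydrogenase that feeds these steps, fell in wt MET at 12 h, from 2327 ± 161 to 1618 ± 24.3 CPM (SD, n = 2, log2 change -0.52, adjusted p = 0.00594). Its call had an adjusted p of 0.0523 without replicate 1 of wt MET at 12 h. In MET∆14 at 12 h GAPDH was at -0.03 and turned to 0.20 without replicate 1 and -0.33 without replicate 2, both called.

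ENO2, the neuronal enolase, measured 21.0 and 19.3 CPM at 0 h, 10.7 and 15.5 at 3 h, 9.43 and 9.30 at 6 h and 25.6 and 21.4 at 12 h in MET∆14. ENO2 in wt MET measured 48.9 and 40.2 CPM at 0 h, 49.9 and 49.9 at 3 h, 53.3 and 55.6 at 6 h and 48.1 and 47.6 at 12 h. The MET∆14 libraries at 3 and 6 h were all below those at 0 h and those at 12 h were above them. The wt MET libraries at 3 and 6 h lay just above those at 0 h, and those at 12 h lay between them. ENO2 in MET∆14 had log2 changes of -0.60 at 3 h (adjusted p = 0.00644), -1.10 at 6 h (SE 0.15, adjusted p = 3.47e-05) and 0.24 at 12 h, the last not called. The 3 h call was lost without replicate 1 of 0 h or of 3 h (adjusted p up to 0.0953). In wt MET ENO2 was not called.

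The lactate dehydrogenase subunits moved in opposite directions in the lines. LDHB fell in wt MET from 561 ± 23.2 to 393 ± 26.3 CPM (SD, n = 2) at 12 h and rose in MET∆14 from 192 ± 0.667 to 257 ± 37.8 CPM, and 33.4% of its annotated exon length overlaps another gene on the same strand. LDHA fell in wt MET at 12 h (log2 change -0.30, adjusted p = 0.0237) and rose in MET∆14 (0.35, adjusted p = 0.00903). Without either 12 h library of MET∆14 in turn, LDHB was at 0.56 and 0.25 and LDHA at 0.48 and 0.18, all called. The LDHA call in MET∆14 was lost without either 0 h library (adjusted p up to 0.076), and that in wt MET without replicate 2 of 0 h or either 12 h library (up to 0.119).

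Of the pyruvate dehydrogenase kinases, PDK4 fell in wt MET. It measured 29.4 and 15.9 CPM at 0 h, 7.21 and 7.03 at 3 h, 3.81 and 4.24 at 6 h and 8.43 and 8.81 at 12 h. The 0 h libraries differed widely from each other, and all treated libraries were below both. Its log2 change was -1.67 at 3 h (SE 0.27, adjusted p = 0.00065), -2.49 at 6 h (SE 0.29, adjusted p = 1.45e-05) and -1.39 at 12 h (SE 0.26, adjusted p = 0.00093). In MET∆14 PDK4 was near absent, with 7 and 9 counts per library at 0 h, 1 and 1 at 3 h, 0 and 2 at 6 h and 2 and 7 at 12 h. It was called at 6 h in MET∆14, on these few counts, and no fold change is given. The call was lost without any 1 of the 0 and 6 h libraries of MET∆14.

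PDK3 was low in both lines. PDK3 in wt MET measured 3.69 and 2.40 CPM at 0 h, 2.27 and 2.18 at 3 h, 1.51 and 2.09 at 6 h and 1.62 and 2.62 at 12 h, and the 12 h libraries overlapped with those at 0 h. In MET∆14 it measured 10.4 and 9.59 CPM at 0 h, 7.65 and 7.53 at 3 h, 5.46 and 4.76 at 6 h and 5.86 and 4.91 at 12 h, all treated libraries below those at 0 h. In MET∆14 PDK3 had a log2 change of -0.97 at 6 h (SE 0.21, adjusted p = 0.00163) and -0.87 at 12 h, where it was also called without either 12 h library. In wt MET it was called at 6 h (-0.76, adjusted p = 0.0475), and the adjusted p rose to as much as 0.392 when single libraries were left out, 11 of which ended the call. PDK1, the kinase most linked to HIF, was called higher at 12 h in MET∆14 (0.50, adjusted p = 0.0363), with 0.10 and an adjusted p of 0.592 without replicate 1 of that time and 0.77 without replicate 2.

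Of the 9 hypoxia response genes, 4 were called higher and 4 lower at 3 h in MET∆14 (all genes 15.5% and 16.1%). At 6 h there were 3 higher and 3 lower (21.6% and 22.5%), and at 12 h 4 higher and 1 lower (18.3% and 20.1%). In wt MET there were 1 higher and 1 lower at 3 h (all genes 10.3% and 7.16%), 2 and 1 at 6 h (16.4% and 17.8%) and 2 and 2 at 12 h (16.9% and 18.2%). KDM3A measured 77.4 and 78.1 CPM at 0 h, 33.6 and 40.1 at 3 h, 35.03 and 32.4 at 6 h and 92.0 and 59.1 at 12 h in MET∆14. KDM3A in wt MET measured 213 and 231 CPM at 0 h, 277 and 293 at 3 h, 318 and 317 at 6 h and 307 and 289 at 12 h. All treated wt MET libraries were above those at 0 h, the MET∆14 libraries at 3 and 6 h were below theirs, and the MET∆14 12 h libraries lay on either side.

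KDM3A had log2 changes of -1.07 at 3 h (SE 0.15, adjusted p = 7.55e-05) and -1.21 at 6 h (SE 0.15, adjusted p = 1.51e-05) in MET∆14, and 0.51 at 6 h in wt MET (SE 0.14, adjusted p = 0.0106, or 0.0867 without replicate 1 of 0 h). At 12 h it was -0.03 in MET∆14, and -0.40 without replicate 1 or 0.23 without replicate 2, both called. EGLN3 fell in MET∆14 from 102 ± 7.14 CPM before HGF to 56.4 ± 2.36 CPM after 6 h (SD, n = 2), and CA9 from 21.0 ± 0.856 to 11.7 ± 0.0506 CPM at 3 h. CA9 shares 35.7% of its exon length with a gene on the opposite strand. BNIP3, a mitochondrial protein that promotes mitophagy, fell at 3 h (log2 change -0.38) and rose at 12 h, from 36.9 ± 0.530 to 67.9 ± 0.585 CPM (0.88, SE 0.08, adjusted p = 1.47e-06), and was called without either 12 h library.

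VEGFA and NDRG1 rose in both lines. VEGFA rose in MET∆14 from 343 ± 23.8 to 628 ± 43.97 CPM (SD, n = 2) at 3 h and was called at all 3 times, and in wt MET from 89.6 ± 6.32 to 129 ± 5.06 CPM at 3 h, the only time called there and lost without any 1 of the 0 and 3 h libraries (adjusted p up to 0.105). NDRG1, a stress-responsive gene, was called at all 3 times in MET∆14 (log2 change 0.76 at 6 h, adjusted p = 4.6e-05) and at 6 and 12 h in wt MET (0.45 and 0.51), the 6 h call being lost without replicate 1 of 0 h (adjusted p = 0.0738). ADM rose in MET∆14 at 3 and 6 h and fell at 12 h (0.42, 0.28 and -0.38), and fell in wt MET at 12 h (-0.55). In MET∆14 its 3 h call was lost without replicate 1 of 3 h and its 12 h call without either 0 h library. That at 6 h was lost with library totals, the stricter filter, the replicate block and each line fitted alone (adjusted p up to 0.259). EGLN1, the main prolyl hydroxylase of the HIF pathway, fell at all 3 times in wt MET (-0.22 to -0.27) and rose at 3 and 12 h in MET∆14 (0.25 and 0.29), and 55.8% of its exon length overlaps another gene on the same strand. Its calls in wt MET were lost without replicate 2 of 0 h or either library of the treated time (adjusted p up to 0.177), the 3 h call in MET∆14 with 3 libraries left out in turn (up to 0.137), and the ADM call at 6 h with 10 (up to 0.424). ANKRD37, a HIF target at 1.14 to 3.91 CPM, was not called at any single time in either line.

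By line, 17 members were called at 1 or more times in both lines. GAPDH, GPI, PFKL and TPI1 were called in wt MET and not in MET∆14, and BNIP3, CA9, EGLN3, ENO2, HK2 and PDK1 in MET∆14 and not in wt MET. The remaining 8 (ALDOA, ALDOC, PGK1, PGAM1, ENO1, PKM, SLC2A3 and ANKRD37) were called at no single time in either. Over all genes tested the shares were 32.4% in both lines, 14.8% in wt MET alone, 26.3% in MET∆14 alone and 26.5% in neither. Being called in a line alone does not show a difference, which was tested directly.

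In the test of the difference in response between the lines over the 3 times, 18 of 35 members were called, where 37.6% of all genes were. They were 3 transporters (SLC2A1, SLC16A1 and SLC16A3), 8 genes of upper glycolysis (HK1, HK2, GPI, PFKL, PFKP, PFKFB3, PFKFB4 and TPI1), 3 of lower glycolysis (ENO2, LDHA and LDHB) and 4 hypoxia response genes (BNIP3, EGLN1, EGLN3 and KDM3A). No pyruvate dehydrogenase kinase was among them (0 of 3). At 3 h, 11 members were called, 5 with the higher and 6 with the lower response in MET∆14 (all genes 17.4%, 8.93% and 8.47%). At 6 h there were 14, 9 higher and 5 lower (all genes 30.2%, 16.4% and 13.8%), and at 12 h there were 13, 11 higher and 2 lower (all genes 24.0%, 13.0% and 11.0%). The median difference of the members was 0.07, 0.25 and 0.28 at these times, against 0.01, 0.04 and 0.01 over all genes, positive values being a higher response in MET∆14. The count at 12 h depends on the MET∆14 pair that stood apart. Without its replicate 1 and without its replicate 2, the difference of PFKM, which was called, was 0.27 and 0.61, against 0.46. That of GAPDH, not called, was 0.73 and 0.20, against 0.49.

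The largest difference was that of PFKFB4, whose log2 change in MET∆14 was below that in wt MET by 2.90 at 6 h (-2.90, SE 0.23, adjusted p = 6.71e-07). KDM3A differed by -1.72 (SE 0.21), ENO2 by -1.39 (SE 0.20) and PFKFB3 by -1.35 (SE 0.16) at 6 h. HK2 differed by 1.31 at 6 h (SE 0.22, adjusted p = 0.00032) and SLC16A3 by 1.48 at 12 h (SE 0.16, adjusted p = 1.29e-05), with the MET∆14 response above. SLC16A1, HK1, TPI1 and EGLN3 lost their call over the 3 times when particular libraries were left out, with adjusted p up to 0.0633, 0.0567, 0.071 and 0.127.

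Some members were called in both lines at the same time with opposite signs. At 3 h these were SLC2A1, PFKFB4 and EGLN1, 3 of the 5 members called in both lines. At 6 h they were PFKFB4, LDHB and KDM3A (3 of 7), and at 12 h SLC16A1, SLC16A3, PFKP, LDHA, LDHB and EGLN1 (6 of 10). Of all genes called in both lines, 264 of 1323 had opposite signs at 3 h, 801 of 2778 (28.8%) at 6 h and 529 of 2478 (21.3%) at 12 h. PFKFB3 and VEGFA at 3 h, NDRG1 at 6 and 12 h, and SLC2A1, HK1 and ADM at 12 h were called with the same sign in both lines.

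From 6 h to 12 h, 11 members were called in MET∆14, 8 higher and 3 lower, where 18.6% of all genes were called, 8.30% higher and 10.3% lower. PFKFB4 (1.25, SE 0.18), ENO2 (1.34, SE 0.15), KDM3A (1.18, SE 0.15), BNIP3 (1.05, SE 0.08), PDK1 (0.87, SE 0.18), EGLN3 (0.71, SE 0.10), CA9 (0.67, SE 0.17) and PFKP (0.25, SE 0.08) were higher at 12 h, and HK2, SLC16A3 and ADM were lower. Of the 10 members called lower at 6 h against 0 h, PFKFB4, ENO2, KDM3A, EGLN3 and CA9 were among the 8, and SLC2A1, SLC16A1 and PDK3 were called lower at 12 h against 0 h as well. Without either 12 h library, 10 of these 11 remained called, and SLC16A3 was lost without replicate 1 (adjusted p = 0.0607). The PFKP call was lost with 12 libraries left out in turn. That of CA9 was lost without replicate 1 of 6 h, and those of PDK1 and SLC16A3 without replicate 2 of 6 h. SLC16A3 was also not called with library totals or with each line fitted alone (adjusted p up to 0.0936). Over the libraries left out, the log2 change was 0.54 to 0.85 for CA9, 0.48 to 1.16 for PDK1 and -0.41 to -0.21 for SLC16A3. In wt MET 6 members were called between 6 and 12 h, 1 higher and 5 lower, where 11.6% of all genes were called, 5.59% higher and 5.98% lower. PFKFB3 fell by 1.51 on the log2 scale between 6 and 12 h in wt MET, SLC16A3 by 0.74 and SLC2A1 by 0.72. With library totals in place of TMM factors the split was 10 higher and 2 lower in MET∆14 and 2 higher and 5 lower in wt MET.

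Of the 15 members called at 12 h against 0 h in MET∆14, 13 were called without either 12 h library, and SLC16A1 and PDK1 were lost without replicate 1. Without replicate 2 the count rose to 23 (13 higher, 10 lower), and without replicate 1 it was 21 (16 higher, 5 lower), where 46.3% and 38.3% of all genes were called. Among the called members not yet given both ways, the log2 change without replicate 1 and without replicate 2 was 0.75 and 0.79 for HK1, 0.88 and 0.85 for PFKP, -0.52 and -0.67 for SLC2A1, 0.41 and 0.91 for VEGFA, 0.51 and 0.37 for NDRG1, -0.35 and -0.43 for ADM, 0.89 and 0.86 for BNIP3, -1.02 and -0.78 for PDK3 and 0.28 and 0.29 for EGLN1, all called. SLC16A1 was at -0.21 and -0.40, the second called. ENO2, not called, was at 0.09 and 0.34. The log2 ratio of replicate 2 to replicate 1 was 0.56 for TPI1, 0.52 for GAPDH and 0.49 for ENO1, and -0.68 for PDK1, -0.64 for KDM3A and -0.51 for VEGFA. The part of this disagreement in the 12 h results was not tested beyond leaving out each library.

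**Figure D4:**
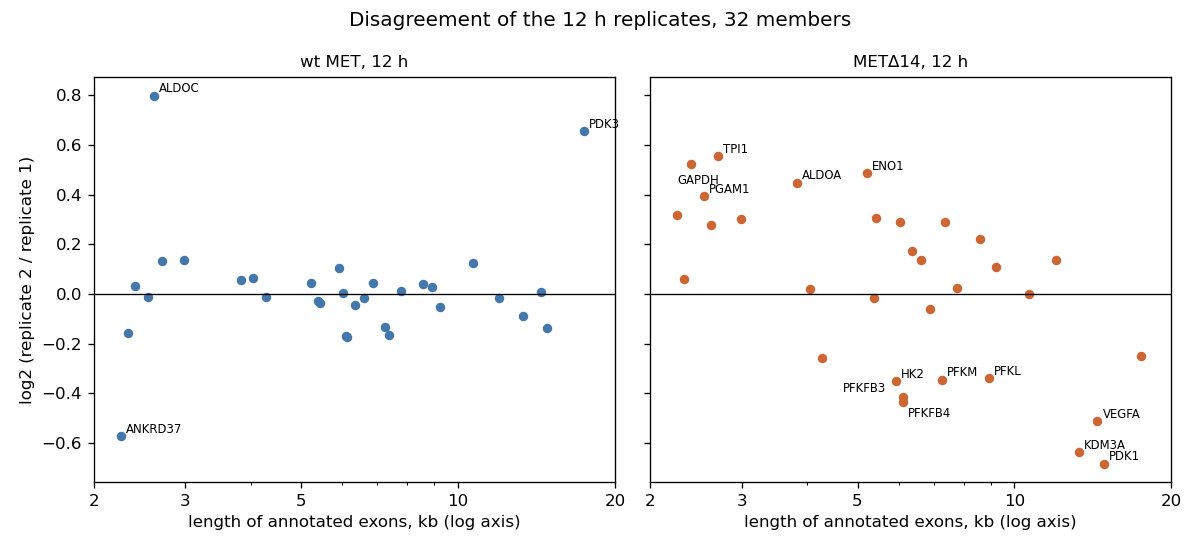
The log2 ratio of replicate 2 to replicate 1 at 12 h (y axis) is plotted against the length of annotated exons in kb on a log axis for 32 members, wt MET on the left and MET∆14 on the right. In MET∆14 TPI1, GAPDH and ENO1 lie furthest above 0 and PDK1, KDM3A and VEGFA furthest below, some members with long exons such as NDRG1 lie above 0, and most wt MET points lie near 0.

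Isoform make-up was compared per kb of annotated exon among the 35 members alone, without further genes of a family. HKDC1, a further hexokinase, was at 115 CPM in wt MET and 3.59 CPM in MET∆14 at 0 h, against 48.8 and 193 CPM for HK1. SLC16A7, a further monocarboxylate transporter, was at 2.65 CPM in wt MET and 48.7 CPM in MET∆14 at 0 h. HK2 made up 11.6% and 13.5% of hexokinase (HK1 and HK2) in wt MET at 0 h and stayed between 10.8% and 14.4% at all times. In MET∆14 its share was 40.3% and 39.7% at 0 h, 60.4% and 57.3% at 3 h, 53.8% and 55.3% at 6 h and 44.9% and 39.9% at 12 h, so the 3 and 6 h libraries were all above the others. PFKP made up 92.8% to 94.7% of phosphofructokinase in wt MET, and in MET∆14 it went from 35.4% and 36.2% at 0 h to 48.5% and 54.8% at 12 h.

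SLC16A3 made up 12.8% and 9.91% of the monocarboxylate transporters SLC16A1 and SLC16A3 in wt MET at 0 h and 5.11% and 5.08% at 12 h. In MET∆14 it went from 32.4% and 35.1% at 0 h to 51.8% and 52.8% at 6 h. LDHB was 60.5% and 60.5% of lactate dehydrogenase at 0 h in wt MET and 27.0% and 26.8% in MET∆14, and it stayed within 5 percentage points of these values at later times. PFKFB4 rose from 11.1% and 13.3% of the PFKFB pair at 0 h to 30.6% and 30.7% at 12 h in wt MET. These shares were not tested, and lengths are those of all annotated exons rather than of the transcripts made.

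**Figure D5:**
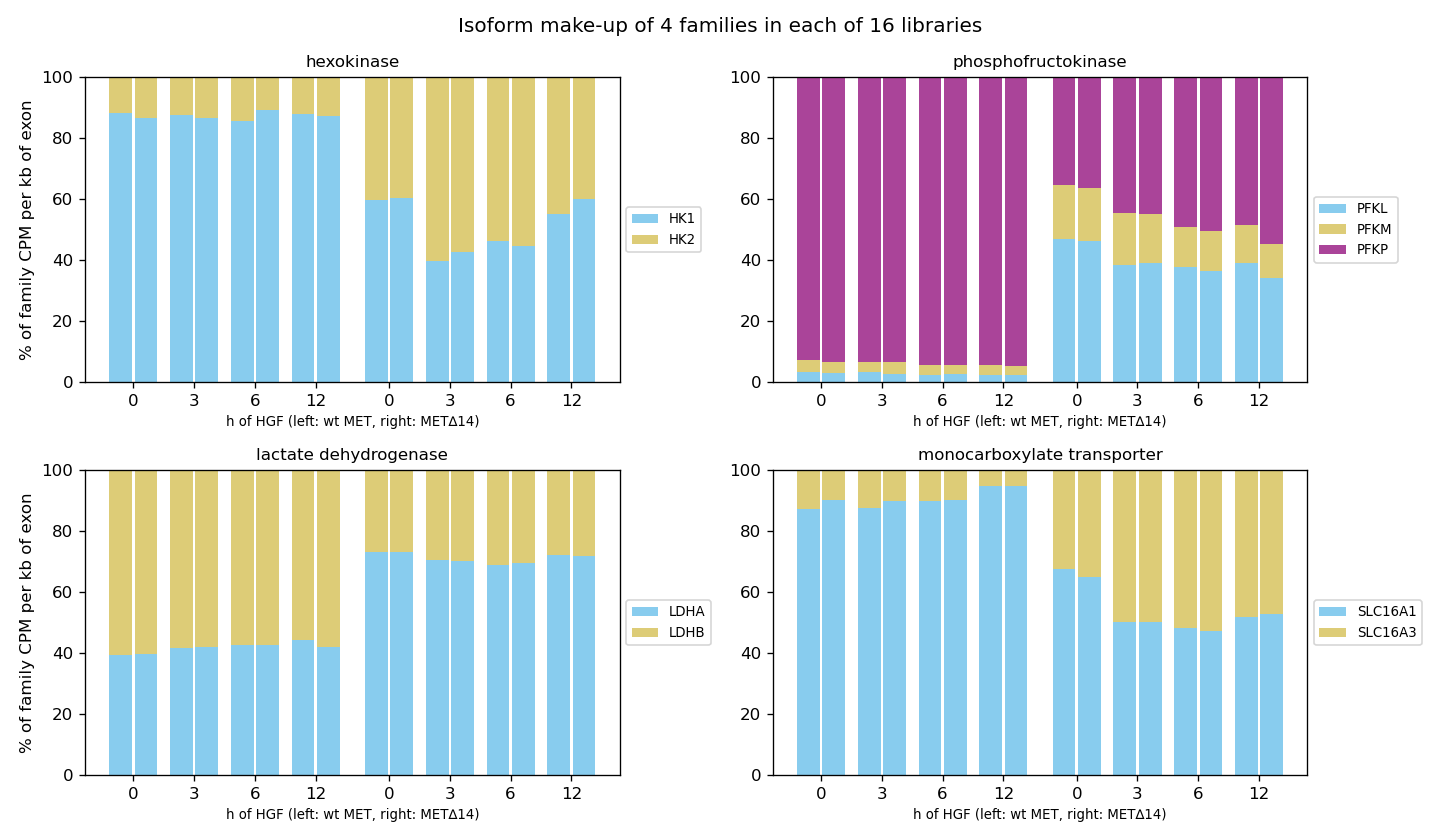
Each bar is a library and shows how hexokinase, phosphofructokinase, lactate dehydrogenase and monocarboxylate transporter transcripts divide among the members of this set. Values are a percent of these members' CPM per kb of exon, without further genes such as HKDC1 and SLC16A7 (x axis: h of HGF, wt MET on the left, MET∆14 on the right). PFKP and SLC16A3 take larger shares at 3, 6 and 12 h than at 0 h in MET∆14, HK2 does so at 3 and 6 h, and PFKP takes over 90% of phosphofructokinase in wt MET throughout.

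The additive model with cell line and time, the formula of the study, tests a time effect fitted jointly to both lines. It called 14 members, 6 higher and 8 lower by their mean over the 3 times, where 30.6% of all genes were called, 13.4% higher and 17.2% lower. By that mean, higher were HK1, HK2, PFKFB3, VEGFA, NDRG1 and BNIP3, and lower were SLC2A1, PFKM, PDK1, PDK3, PDK4, CA9, ADM and EGLN3. The changes of BNIP3, PDK1 and ADM turned sign between times in MET∆14, so their mean does not describe each time. A call in this model does not require a change in both lines. HK2, BNIP3, CA9, EGLN3 and PDK1 were called at single times in MET∆14 alone. CA9 and PDK4 were near absent from a line, and SLC2A1 was called with opposite signs at 3 h. PFKFB4 and KDM3A, which moved in opposite directions in the lines, had adjusted p of 0.175 and 0.312 in this model. With library totals in place of TMM factors 5 were higher and 10 lower.

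Other genes of the pathways were counted in the same fits. Of 7 pentose phosphate pathway genes, 0 were called higher and 6 lower at 12 h in wt MET, and 2 higher and 4 lower in MET∆14. At that time 16.9% of all genes were higher and 18.2% lower in wt MET, and 18.3% and 20.1% in MET∆14, which also serve the counts at 12 h of the next lists. RPIA, a pentose isomerase, rose in MET∆14 at 6 h (1.33, adjusted p = 6.45e-07) and was not called in wt MET.

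Of 16 citric acid cycle genes, 1 was called higher and 3 lower in wt MET at 12 h (35.1% of all genes called) and 5 higher and 3 lower in MET∆14 (38.3%). SDHA, a subunit of succinate dehydrogenase, rose in MET∆14 from 460.2 to 909 CPM at 12 h (log2 change 0.98, adjusted p = 7.97e-07), and SDHD, another subunit, fell (-0.49, adjusted p = 0.000968). Of 12 genes of pyruvate entry into mitochondria, 2 were called higher and 4 lower in wt MET (all genes 35.1%) and 1 higher and 5 lower in MET∆14 (38.3%) at 12 h. PDP1, a phosphatase that reverses the action of the kinases above, rose in wt MET (0.66) and fell in MET∆14 (-0.85), and PDP2 rose in MET∆14 at 3 h (0.87).

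Of 31 further HIF target genes 29 were tested, and more were called lower than higher at 3 and 6 h. In wt MET 4 were higher and 9 lower at 3 h (all genes 10.3% and 7.16%), 5 and 10 at 6 h (16.4% and 17.8%) and 7 and 7 at 12 h (16.9% and 18.2%). In MET∆14 4 were higher and 9 lower at 3 h (15.5% and 16.1%), 5 and 12 at 6 h (21.6% and 22.5%) and 6 and 8 at 12 h (18.3% and 20.1%), and in the shared effect 4 and 12 (13.4% and 17.2%). BHLHE40, a transcriptional repressor, rose in wt MET from 300.2 CPM to 1419 CPM after 6 h (log2 change 2.24, adjusted p = 8.53e-10) and fell in MET∆14 from 181 to 89.9 CPM (-1.01, adjusted p = 8.21e-07). HILPDA, a lipid droplet protein, fell in wt MET at 3 h (-2.29) and rose in MET∆14 (0.99). Of 12 tested oxygen sensing factors, 0 were called at 3 h in wt MET (all genes 17.4%) and 2 higher and 2 lower in MET∆14 (31.7%), and ARNT2 and CITED2 differed most between the lines. Of 19 tested genes of further isoforms and glucose handling, 2 were called higher and 6 lower in wt MET (all genes 35.1%) and 6 higher and 8 lower in MET∆14 (38.3%) at 12 h, and the glucose transporter SLC2A12 fell in MET∆14 from 7.50 to 0.524 CPM.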

How the data were processed

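Polyadenylated RNA of 16 libraries was extracted with RNeasy columns and sequenced from TruSeq libraries, and the authors deposited whole-number counts per gene without normalization. The submitters' processing notes name STAR 2.5.0, RSEM 1.3.2 and hg38; whether the counts are rounded RSEM estimates, which annotation was used and whether strand was used in counting are not given in the sources used here. Total counts per library were 10158590 to 23909304.

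Genes were kept with filterByExpr (minimum count 10, total 15), scaled with TMM factors and fitted over all 16 libraries by the robust quasi-likelihood method of edgeR 4.0.16 (limma 3.58.1, R 4.3.3) with 1 mean per line and time, with Benjamini-Hochberg adjustment over all 15067 genes and a threshold of 0.05. The study calls the duplicates biological, but the labels do not say that they came from separate cultures. The p-values therefore measure only the spread between these samples. CPM carry no prior count, an SE is the size of the log2 change over the square root of its F statistic, and members with at most 3 counts in every library of a group were treated as at the floor. The shared time effect came from an additive model of line and time. Members described library by library were the 6 with the largest called changes in wt MET, in MET∆14 and in the difference between lines. The members and the other gene lists were chosen with earlier results of these data known. The contrast of 12 h with 6 h was chosen after seeing the data. Promoters came from RefSeq on GRCh38.p14 and exon lengths and overlaps from the GENCODE annotation of hg38. Alternatives were DESeq2 1.42.0, its size factors, library totals, no filter or a stricter filter, each line fitted alone, a replicate block and each library left out. The scripts were tested on simulated data, and figures were drawn with matplotlib 3.10.9 in Python 3.11.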

Additional observations from a re-analysis of the deposited data

Results flagged for a closer look

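The response to HGF differed between the lines in 18 members, by edgeR's quasi-likelihood test of the difference over the 3 times. Each value below is the log2 response in MET∆14 minus that in wt MET at a single time, the one of largest size among those called where there is one. EGLN3 was called at no single time, and its value is that at 3 h. The response was lower in MET∆14 for PFKFB4 (-2.90 at 6 h), KDM3A (-1.72 at 6 h), ENO2 (-1.39 at 6 h) and PFKFB3 (-1.35 at 6 h). SLC2A1 (-0.81 at 3 h), EGLN3 (-0.80 at 3 h, adjusted p = 0.053) and SLC16A1 (-0.60 at 12 h) had smaller differences, and the call of EGLN3 over the 3 times was lost without any 1 of 7 libraries (adjusted p up to 0.127).

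The response was higher in MET∆14 for the lactate exporter SLC16A3 (1.48 at 12 h), the hexokinase HK2 (1.31 at 6 h), PFKP (1.31 at 12 h), BNIP3 (0.96 at 12 h), LDHB (0.93 at 12 h) and PFKL (0.93 at 12 h). Smaller differences of the same sign were those of TPI1 (0.67 at 12 h), LDHA (0.64 at 12 h), GPI (0.64 at 12 h), EGLN1 (0.52 at 3 h) and HK1 (0.47 at 6 h). For TPI1, LDHA and LDHB the 12 h duplicates in MET∆14 differed with SDs of 105, 190.1 and 37.8 CPM. Without replicate 1 and without replicate 2 of that group, the 12 h difference was 0.92 and 0.36 for TPI1. It was 0.78 and 0.49 for LDHA and 1.075 and 0.77 for LDHB. The part of that spread in the 12 h difference was not tested further. Since each MET status is a single line, MET status and cell line cannot be told apart.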

How the results depend on the processing

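Of 175 called results of the members, 150 remained called under every setting that keeps all libraries and 126 also with each library left out, and 0 changed sign. Members called at 3 h in wt MET numbered 12 with each line fitted alone, against 7. Over all genes 3705 of 13571 were called in that fit, against 2629 of 15067. The number of all genes called also moved with the library left out. With each library left out in turn, the members called numbered 4 to 13 at 3 h, 7 to 19 at 6 h and 13 to 21 at 12 h in wt MET, and 12 to 20, 14 to 22 and 11 to 23 in MET∆14. Over all times they numbered 14 to 24 in wt MET and 18 to 29 in MET∆14, the difference between the lines 15 to 25, the lines at 0 h 31 to 34 and the shared effect 12 to 15. The highest counts mostly came without replicate 1 of MET∆14 at 12 h (13 and 19 at 3 and 6 h in wt MET), and 7 at 6 h in wt MET came without replicate 1 of 0 h. Changes near 0 at 12 h in MET∆14 turned sign without replicate 2 of that time, to -0.19 for ALDOA, -0.30 for TPI1, -0.27 for ENO1 and 0.23 for KDM3A, and without replicate 1 for GAPDH, to 0.20. Without replicate 1 ALDOA was at 0.27, TPI1 at 0.27 and ENO1 at 0.23, and KDM3A was at -0.40, and without replicate 2 GAPDH was at -0.33. Without GAPDH the members' mean share of counts was 1.005% in wt MET and 1.408% in MET∆14, against 1.195% and 1.685%. The cause was not tested for any of these, beyond the libraries left out.

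Replicate numbers left little sign of pairing in the counts: of 28 correlations between deviations of same-numbered libraries, from -0.16 to 0.11, 1 was over 0.1. Such correlations cannot show that the samples were unpaired. With the replicate block, members called over all times numbered 18 against 21 in wt MET and 20 against 21 in MET∆14, and 18 with and without it for the difference between lines.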
